A study of Rattus norvegicus with 3 samples.

Results

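The acyl-CoA synthetases described here are 8 rat genes, the long-chain enzymes Acsl1, Acsl3, Acsl4, Acsl5 and Acsl6 and the medium-chain enzymes Acsm2, Acsm3 and Acsm5. They were taken as every probe set annotated to exactly 1 gene symbol, that symbol being one of the 8. This gave 12 probe sets for 8 genes, of 20826 probe sets for 14217 named genes. The tissue was renal proximal tubule isolated from male rats of the Sprague-Dawley strain, 7 to 8 weeks old, measured on 3 Affymetrix arrays with 1 preparation each. The labels name no transgene, deletion or drug beyond heparin given before the kidneys were taken. All 3 arrays form a single group with no control, so no difference between conditions was tested and every value below is a description. The labels do not say how many animals went into a preparation, so the spread between arrays may be technical.

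Fatty acids are chemically inert in the cell until they are joined to coenzyme A, and acyl-CoA synthetases carry out this step with ATP. The product of the long-chain enzymes feeds mitochondrial oxidation through the carnitine shuttle or is built into triglycerides and phospholipids. The medium-chain enzymes act inside mitochondria, where their products are oxidised or, for aromatic acids such as benzoate, passed on to glycine conjugation. The proximal tubule draws most of its ATP from fatty acid oxidation.

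Signals are linear intensities as deposited. The median over non-control probe sets was 37.1, 37.4 and 34.9 on arrays 1, 2 and 3, and Spearman's rho between arrays, taken across probe sets, was 0.944 to 0.947. Probe sets differ in how well they bind their target, so a signal is set against the median of its own array or against the same probe set on another array, and never against another gene. Markers of proximal tubule cells were above the median on all 3 arrays for 9 of 9 genes, those of the thick ascending limb for 5 of 6 and those of endothelium for 6 of 6 measured genes, beside 61.0% of all named genes. The same count was 3 of 5 for distal convoluted and connecting tubule and 2 of 6 for principal cells. It was 1 of 5 for intercalated cells, 1 of 6 for macrophages, 2 of 5 for fibroblasts, 1 of 4 for podocytes and 0 of 5 for adipocytes. The count thus does not tell proximal tubule from thick ascending limb or endothelium. The part of other cells in the signals below was not tested. In bulk RNA, fewer cells of a type and less RNA per cell cannot be told apart.

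Of the 12 probe sets, 9 exceeded the median of each of the 3 arrays, and the other 3 lay below it on every array. Of all probe sets that name 1 gene, 54.5% exceeded the median of every array. By gene, 7 of 8 had such a probe set, beside 61.0% of all named genes. The exception was Acsl6. With 8 genes these shares only describe the set.

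**Figure D1:**
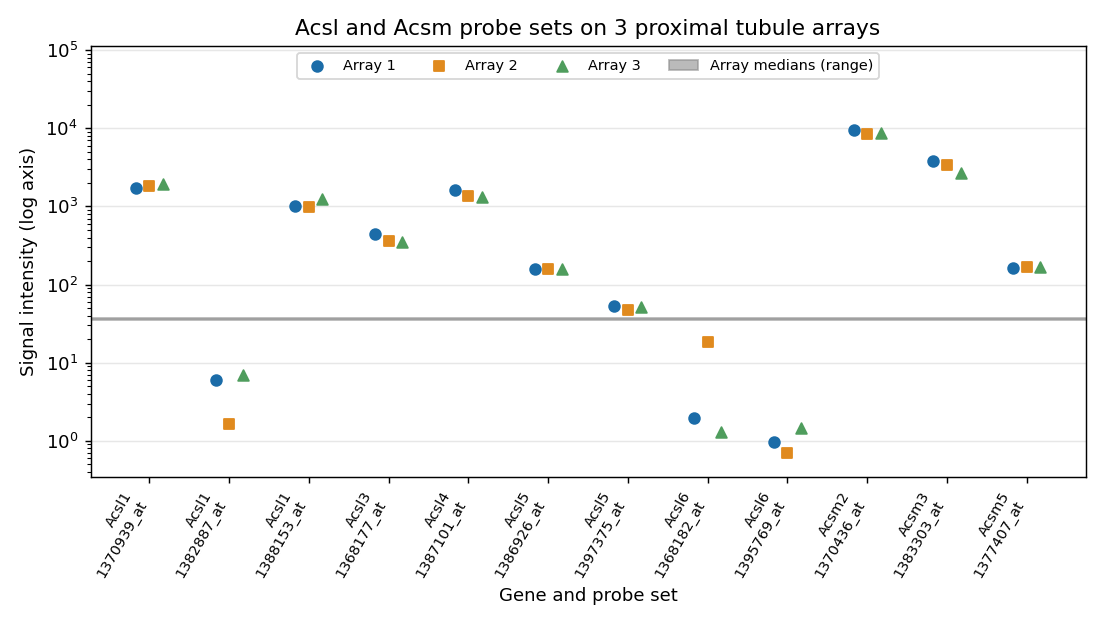
Signal intensity (log axis) of each of the 12 probe sets of the 8 genes on arrays 1, 2 and 3, with the grey band giving the range of the array medians. The 3 probe sets below the band, 1 of Acsl1 and 2 of Acsl6, lie below it on every array.

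Among the medium-chain enzymes, Acsm2 gave signals of 9408, 8404 and 8715 on arrays 1, 2 and 3, a mean of 8842 ± 514 (SD, n = 3). Rodent Acsm2 is known as a kidney-rich mitochondrial enzyme, and RefSeq lists KS among its older names. The 3 preparations were close to each other, with a ratio of the highest to the lowest signal of 1.12.

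Acsm3, known in the rat as the Sa gene and studied in hypertensive strains, gave 3803, 3365 and 2677, a mean of 3282 ± 568 (SD, n = 3). Array 1 was the highest and array 3 the lowest, and the ratio between them was 1.42. Acsm5, a less studied member of the same family, gave 161, 170 and 170, a mean of 167 ± 5.20 (SD, n = 3). Its signals were nearly equal on the 3 arrays. Each of these 3 genes had a single probe set, so no second measurement of it was available.

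The medium-chain genes lie close together on chromosome 1. In the RefSeq gene table of the GRCr8 assembly, Acsm5 and Acsm2 are direct neighbours. RGD1559600, Acsm1 and Acsm4 follow Acsm2 in that order, and Acsm3 lies beyond them with 3 genes between it and Acsm4, namely Thumpd1, a long non-coding RNA gene and Eri2. Acsm1, which was not among the 8 genes, gave 1638, 1728 and 1257 on arrays 1, 2 and 3, and no probe set naming Acsm4 alone was measured. Of the measured Acsm genes of this stretch, 4 of 4 exceeded the median of each array, beside 61.0% of all named genes.

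The DNA just before the starts of these neighbouring genes is shown to compare them with the windows of Acsl3 and Acsl4, which are of another kind. Each is the 250 bases before the RefSeq start in GRCr8, 5′ to 3′ on the strand of the gene. The windows are chr1:183302259-183302508 for Acsm5, chr1:183347455-183347704 for Acsm2 and chr1:183564402-183564651 for Acsm3, all on the plus strand. The others are chr9:87563351-87563600 on the plus strand for Acsl3 and chrX:110803262-110803511 on the minus strand for Acsl4. Capitals mark matches, on either strand, to AGGTCA (the core hexamer of many nuclear receptor sites), GTTAAT (part of the HNF1 recognition sequence), TATAAA (the TATA box), CCAAT (the CCAAT box) and GGGCGG (the GC box), and overlapping matches run into one another.
Acsm5: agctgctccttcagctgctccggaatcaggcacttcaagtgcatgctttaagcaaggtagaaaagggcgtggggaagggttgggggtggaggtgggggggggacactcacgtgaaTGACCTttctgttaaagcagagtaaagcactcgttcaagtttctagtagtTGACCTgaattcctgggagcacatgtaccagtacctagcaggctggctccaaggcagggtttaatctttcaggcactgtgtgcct
Acsm2: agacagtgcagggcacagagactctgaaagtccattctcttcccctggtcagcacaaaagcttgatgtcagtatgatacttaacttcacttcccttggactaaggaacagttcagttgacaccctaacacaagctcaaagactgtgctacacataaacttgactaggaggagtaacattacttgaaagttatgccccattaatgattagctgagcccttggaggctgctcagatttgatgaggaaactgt
Acsm3: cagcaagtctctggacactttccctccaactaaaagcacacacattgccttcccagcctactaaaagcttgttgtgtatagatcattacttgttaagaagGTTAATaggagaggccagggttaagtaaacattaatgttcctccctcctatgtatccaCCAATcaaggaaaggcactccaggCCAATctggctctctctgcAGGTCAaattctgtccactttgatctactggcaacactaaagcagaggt
Acsl3: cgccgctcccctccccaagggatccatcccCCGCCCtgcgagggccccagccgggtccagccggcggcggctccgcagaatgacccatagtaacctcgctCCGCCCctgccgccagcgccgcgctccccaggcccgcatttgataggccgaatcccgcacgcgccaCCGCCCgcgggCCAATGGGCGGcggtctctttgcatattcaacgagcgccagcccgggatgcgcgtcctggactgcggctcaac
Acsl4: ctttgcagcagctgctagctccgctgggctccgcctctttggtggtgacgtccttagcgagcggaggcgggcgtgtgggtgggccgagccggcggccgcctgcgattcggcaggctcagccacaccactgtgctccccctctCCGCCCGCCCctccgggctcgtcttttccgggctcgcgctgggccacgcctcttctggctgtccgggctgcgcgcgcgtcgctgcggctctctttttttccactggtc
The Acsm5 window holds 2 matches to AGGTCA, and the Acsm3 window 1 match to AGGTCA, 1 to GTTAAT and 2 to CCAAT. The Acsm2 window holds no exact match to the 5 motifs. Only exact matches were searched, so inexact sites are not marked in any window. Of all 33469 RefSeq windows of this length, 14.1% hold AGGTCA, 6.45% hold GTTAAT and 34.0% hold CCAAT. Of the windows of the 8 genes, 2 hold AGGTCA, 1 holds GTTAAT and 3 hold CCAAT. The windows of Acsl1 and Acsl3 hold 1 match to CCAAT each.

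The windows differ plainly in their CG pairs. Acsm2 and Acsm3 have 0 CG pairs and Acsm5 has 4, with a GC content of 44.0%, 44.4% and 52.4%. Acsl3 has 31 CG pairs at 72.4% GC and Acsl4 has 28 at 70.4% GC. Acsl3 holds 4 GC boxes, Acsl4 holds 2 and Acsl6 holds 1, so that 3 of the 8 windows have at least 1, near the 30.5% of all windows. The median over all windows is 5 CG pairs and 51.2% GC. Of the windows not printed, that of Acsl1 has 1 CG pair, that of Acsl5 has 4 and that of Acsl6 has 2. Only Acsl5, of the 8, holds TATAAA, which 12.9% of all windows hold. These matches describe letters in a window and say nothing of factors bound in the tubule.

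Among the long-chain enzymes, Acsl1 is the main form of liver, heart and fat, known for supplying both oxidation and triglyceride synthesis. Its probe set 1370939_at gave 1741, 1846 and 1958 on arrays 1, 2 and 3, a mean of 1848 ± 108 (SD, n = 3). A second probe set, 1388153_at, gave 1015, 980 and 1244, a mean of 1080 ± 143 (SD, n = 3). Both were highest on array 3. The third, 1382887_at, gave 5.93, 1.64 and 6.96, below the median of each array. The probe sets of Acsl1 thus disagree about whether the gene is above the median. Such a split, with 1 probe set above the median on all arrays and another below it on all arrays, was present in 29.4% of the 4525 genes with several probe sets. Of the 3 genes with several probe sets here, Acsl1 alone showed it.

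Acsl3, an enzyme of the endoplasmic reticulum and of lipid droplets, gave 450, 358 and 347, a mean of 385 ± 56.6 (SD, n = 3). Array 1 was higher than the other 2, which were close to each other. Acsl4 prefers arachidonate and is known for loading membranes with the polyunsaturated lipids that ferroptosis, an iron-dependent form of cell death, consumes. It gave 1613, 1364 and 1313, a mean of 1430 ± 160 (SD, n = 3), again with array 1 the highest. Each of the pair had 1 probe set.

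Acsl5, a form of mitochondria and endoplasmic reticulum known best from intestine and liver, was measured by 2 probe sets. The probe set 1386926_at gave 157, 160 and 159, a mean of 159 ± 1.41 (SD, n = 3). The probe set 1397375_at gave 53.9, 47.2 and 51.7, a mean of 50.9 ± 3.41 (SD, n = 3), which is not far above the array median. Both lay above the median on each array.

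Acsl6, the form of brain that handles docosahexaenoate and is also known from red cell precursors, was the low member. The probe set 1368182_at gave 1.95, 18.3 and 1.30 on arrays 1, 2 and 3, and the probe set 1395769_at gave 0.967, 0.692 and 1.48. The value of 18.3 on array 2 stood apart from the other 2 arrays, but it was still below that array's median, and the second probe set was not raised there. No detection call was used, so these signals do not show whether the transcript was present. Markers of red blood cells were above the median for 1 of 3 measured genes, Hbb at 173, 83.2 and 74.4, and their summed signal was 185, 90.0 and 102. Neuronal markers were above it for 0 of 5 genes, with a summed signal over 10 probe sets of 80.1, 117 and 80.2. The share of all named genes above the median on all 3 arrays was 61.0%. The part of these cells in the Acsl6 signal was not tested.

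The preparations were compared on median-centred log2(signal + 16), which understates changes of low probe sets. None of the 9 probe sets above the median reached a 2-fold range over the arrays. Of all 11343 probe sets naming 1 gene above the median, 1.41% did, so a count of 0 in 9 is near what the background gives. With no filter on low values, 0 of 12 probe sets did, beside 4.72% of all that name 1 gene. The median range of the 9 was 0.23 log2 units, and that of all such probe sets was 0.29.

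**Figure D2:**
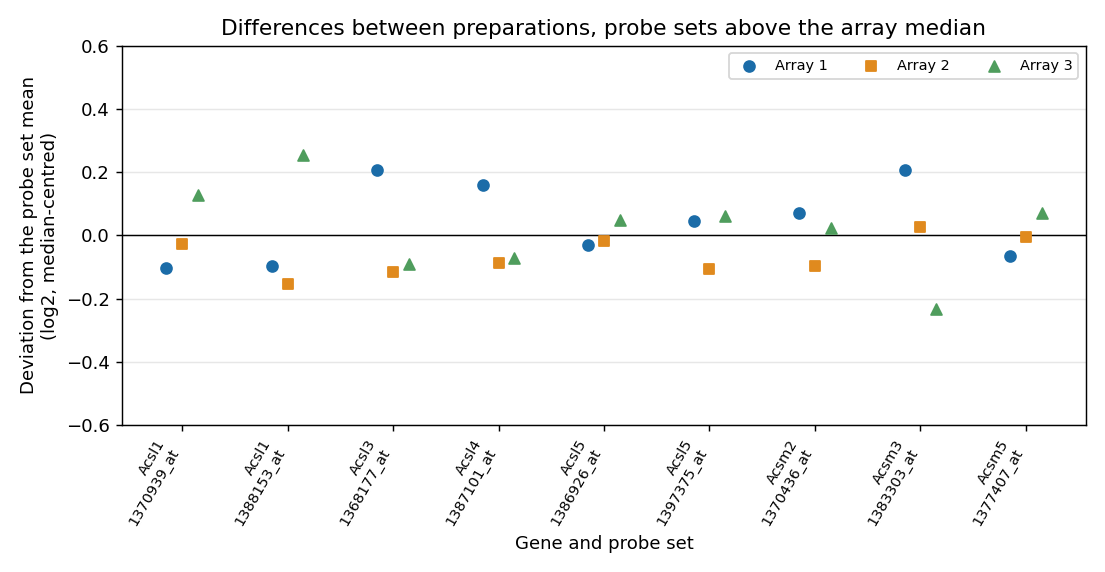
Deviation of each array from the mean of the probe set, in log2 units after median centring, for the 9 probe sets that exceeded the median of every array. Acsm3 spans 0.44 log2 units between array 1 and array 3, and the Acsl5 probe set 1386926_at spans 0.08.

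The widest of the 9 ranges was that of Acsm3, at 0.44 log2 units, which exceeded 76.4% of all probe sets above the median. It deviated from its mean by 0.21, 0.03 and -0.23 on arrays 1, 2 and 3. Acsl1 had the next range, 0.41 by 1388153_at and 0.23 by 1370939_at, with array 3 highest in both. Acsl3 ranged by 0.32, Acsl4 by 0.25 and Acsm2 by 0.17, each with array 1 highest. Acsm5 ranged by 0.14, and Acsl5 by 0.08 and 0.17 in its 2 probe sets.

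Endothelial markers also differed between the arrays. Their summed signal over 9 probe sets was 827, 1132 and 1366 on arrays 1, 2 and 3, and 2 of the 6 probe sets above the median ranged by 2-fold or more. Pecam1, an adhesion molecule of endothelium, gave 42.8, 74.2 and 137, and Plvap, a protein of its fenestrae, gave 185, 286 and 396. Pecam1, Plvap and Kdr (232, 234 and 341 by 1367948_a_at) were highest on array 3, as were both Acsl1 probe sets above the median. Emcn and Tek of the same list were highest on array 2. Flt1 by 1377113_at, its only probe set above the median on all arrays, was lowest on array 3 (44.9, 45.1 and 36.2). Summed signals of some other lists were also highest on array 3. They were 160, 190 and 279 for intercalated cells and 422, 388 and 515 for fibroblasts. Sums for proximal tubule and thick ascending limb markers were highest on array 1. The part of endothelium and of other cells in the Acsl1 differences was not tested.

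On the median-centred scale, array 1 was the highest for 4 of the 9 probe sets, array 2 for 0 and array 3 for 5. These counts depend on the centring. By signal as deposited, Acsl5 was highest on array 2 by 1386926_at and on array 1 by 1397375_at, whereas both were highest on array 3 after centring. Over all probe sets above the median, on the same centred scale, array 1 was the highest for 49.1%, array 2 for 16.3% and array 3 for 34.7%.

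Acsm3 is known from rodents as a gene of the late proximal tubule, so late segment markers, and then early ones, are set beside it. Of 5 measured late marker genes, 3 were above the median on all 3 arrays, near the 61.0% of all named genes. The summed signal of the late list was 4619, 3207 and 4458 on arrays 1, 2 and 3. Slc7a13, an amino acid carrier of that segment, gave 209, 73.6 and 638, highest on array 3. Slc1a1, a glutamate carrier, gave 2611, 1859 and 2107 by 1370367_at and 1734, 1226 and 1646 by 1387932_at, both highest on array 1. Slc1a1 thus made up most of the summed signal of the late list. Slc5a1, a glucose cotransporter, gave 41.0, 43.1 and 34.9, lowest on array 3 like Acsm3. Of the 2 genes below the median, Slc22a13 gave 12.2, 1.27 and 9.97 and Cyp7b1 gave 12.4, 4.24 and 22.1. Slc7a13, Slc1a1, Slc22a13 and Cyp7b1 were thus each lowest on array 2, though they differed in which array was highest. Slc5a1 was highest on array 2, and Acsm3 was lowest on array 3. Markers of the early segment were above the median on all 3 arrays for 5 of 5 measured genes, beside the same 61.0%. Their summed signal was 28941.4, 26192.7 and 25374.5. Slc5a12 by 1383832_at (2489, 2236 and 2112) and Slc34a1 by 1370610_at (4800, 4369 and 2688) were lowest on array 3 like Acsm3. Slc5a2, Slc7a7, Slc7a8 and the other probe sets of Slc5a12 and Slc34a1 were lowest on array 2. The part of segment make-up in the Acsm3 differences was not tested.

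The other families of acyl-CoA synthetases were measured on the same arrays. Of 16 listed genes 13 were measured, and 10 of 13 had a probe set above the median on all 3 arrays, beside 61.0% of all named genes. Slc27a2, a very-long-chain synthetase and fatty acid carrier, gave 6267, 5669 and 5749 on arrays 1, 2 and 3. The acetate-activating genes Acss1 and Acss2 gave 2535, 3221 and 2646, and 1787, 1602 and 1934. Acss3, a mitochondrial enzyme known for propionate, gave 4252, 3972 and 4076.

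Acsf2, a medium-chain enzyme outside the Acsm family, gave 913, 853 and 1048, and Acsf3, which activates malonate, gave 339, 299 and 408. The carriers with synthetase activity Slc27a1, Slc27a4 and Slc27a5 had means of 204 ± 6.71, 254 ± 8.09 and 78.2 ± 6.15 (SD, n = 3). Not above the median on all 3 arrays were Aacs, which activates acetoacetate, at 42.6, 27.8 and 26.0, Acsbg1 of brain at 3.72, 3.18 and 4.50, and Slc27a3 at 4.60, 4.39 and 18.4 by 1390192_at and 27.7, 34.5 and 12.2 by 1390211_at. Aacs passed the median on array 1 only.

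**Figure D3:**
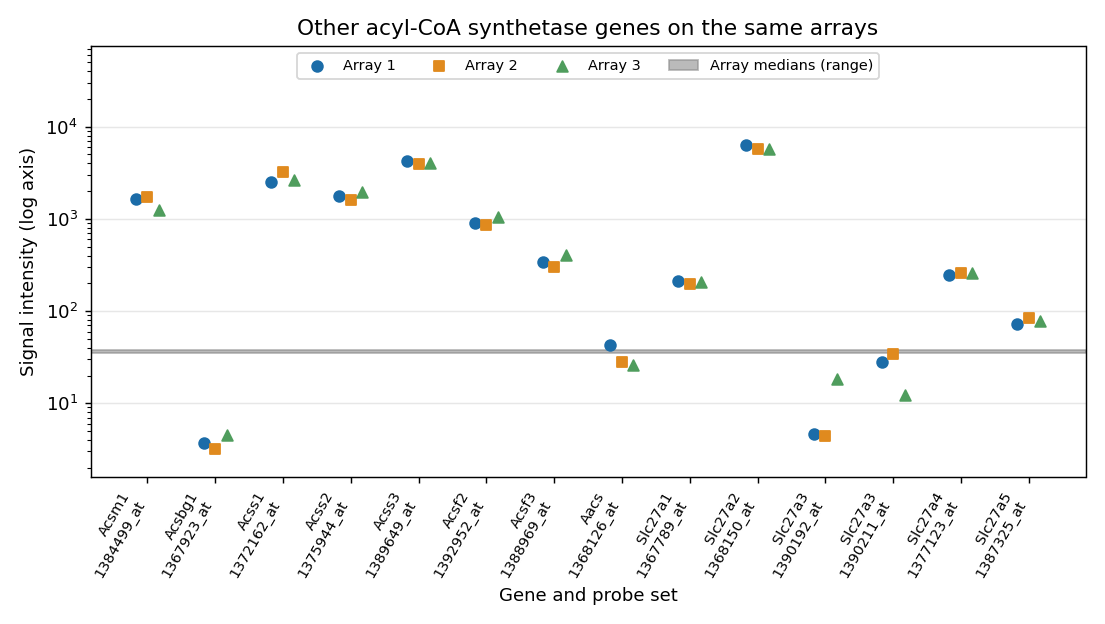
Signal intensity (log axis) of 14 probe sets of 13 other acyl-CoA synthetase genes on arrays 1, 2 and 3, with the grey band giving the range of the array medians. Acsbg1 and both probe sets of Slc27a3 lie below the band on all arrays, and Aacs lies on either side of it.

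The list of carriers and binding proteins covers both fatty acids, which the synthetases use, and acyl-CoA, which they make. Of 12 listed genes, 7 were above the median on all 3 arrays, close to the 61.0% of all genes. Fabp3, a binding protein known from heart, gave 3615, 3048 and 2673, and Dbi, which binds acyl-CoA, gave 6454, 5620 and 5877. Below the median on all arrays were the fatty acid receptor gene Cd36 at 17.1, 22.6 and 20.7 and the liver binding protein gene Fabp1 at 1.65, 14.5 and 2.70.

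After the synthetases, the carnitine shuttle takes long-chain acyl groups into mitochondria. Of its genes, 7 of 8 were above the median on all 3 arrays, beside 61.0% of all named genes. Cpt1a, the gate of the shuttle, gave 1862, 1261 and 1386 by 1386946_at and 438, 293 and 335 by 1367836_at. Both were lowest on array 2 and ranged by 0.56 log2 units, more than any of the 9 probe sets above. Cpt2, the inner membrane enzyme, gave 363, 300 and 312, and Slc25a20, the carrier between the 2 enzymes, gave 515, 393 and 508. Slc22a5, which brings carnitine into the cell, gave 3591, 2731 and 2882. The peroxisomal Crot gave 1216, 1074 and 1039 by 1368426_at and 252, 181 and 218 by 1387183_at. Its probe set 1380015_at gave 2.42, 1.35 and 6.38, below the median of each array. Crat gave 1022, 1005 and 1086. Cpt1b, known as the muscle form, gave 72.8, 83.6 and 51.4, and the brain form Cpt1c lay below the median at 4.58, 2.46 and 2.97.

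Glycine conjugation uses the products of the medium-chain enzymes. Glyat, the glycine acyltransferase of mitochondria, gave 3431, 3215 and 3082 on arrays 1, 2 and 3, and its relative Glyatl2 gave 274, 317 and 255. Both measured genes of the 4 listed were above the median on all 3 arrays, beside 61.0% of all named genes.

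The remaining lists are given by counts of genes above the median on all 3 arrays, each to be read beside the 61.0% of all named genes. Mitochondrial beta-oxidation had 15 of 15, with Acadm, the medium-chain dehydrogenase, at 5063, 5181 and 4611. The acyl-CoA thioesterases, which undo the synthetase reaction, had 10 of 10. Glycerolipid synthesis had 11 of 13, with Dgat1, which completes triglycerides, at 525, 441 and 483, and Gpam, a mitochondrial glycerol-phosphate acyltransferase, below the median in both probe sets. Many genes of this list have several probe sets, and by probe set 16 of 26 passed (61.5%), beside 54.5% of all that name 1 gene. Phospholipid remodelling had 3 of 6, among them Lpcat3, which places arachidonate into phospholipids, at 830, 699 and 824 by 1393915_at. Regulators of the PPAR group, which are known to drive Acsl1 and oxidation genes in liver, had 5 of 6, with Ppara at 37.9, 66.0 and 35.5, just above the medians of arrays 1 and 3. With lists of this size and genes that share pathways, these counts were not tested against each other.

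**Figure D4:**
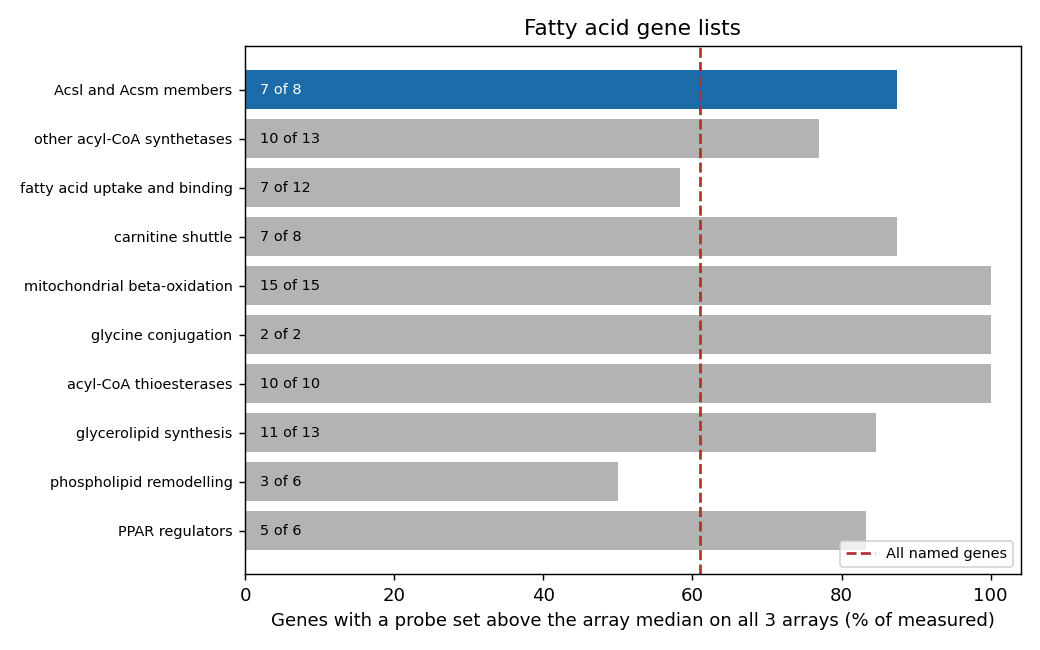
Share of measured genes with a probe set over the median of every array, in percent, for the 8 genes (blue, top) and 9 related lists (grey), with counts in the bars and a dashed line at the 61.0% of all named genes. The 8 genes stand at 7 of 8, as does the carnitine shuttle, and phospholipid remodelling stands below the line at 3 of 6.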

How the data were processed

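Total RNA of isolated proximal tubules was labelled with biotin by the array maker's protocol, per the labels' protocols. Rats had received 250 units of heparin 30 min before decapitation, and tubules came from cortex digested with collagenase and separated in 42.5% Percoll. The deposited values are linear signal intensities, 1 for each of 31099 probe sets on an array, and 57 control probe sets were left out. Summarisation and scaling between arrays are not given in the sources used here, so levels were used as deposited. The number of arrays limits the precision, and no detection call was used.

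Gene symbols came from GEO's platform annotation: 20826 probe sets name 1 gene, 436 name several and were left out, and 9780 are unnamed here. All 8 genes matched the RefSeq table of GRCr8 by gene identifier with the same symbol, and all 8 have a promoter window there, credited to RefSeq. A gene was above the median if any of its probe sets exceeded the median of every array, so a gene with more probe sets could pass more easily. Ranges used log2(signal + 16) centred on the array median, and 1 log2 unit was the limit for a call. The steps were run on simulated arrays with changes planted only in high probe sets, well to either side of the limit. That run does not test low probe sets or changes near the limit. The genes and lists were chosen with earlier results of these data known. The naming rule was all 8 genes, every measured gene of the lists of other synthetases, carnitine shuttle and glycine conjugation, 9 preset genes of other lists, and cell markers set beside a gene. Python 3.11.15, pandas 2.3.3 and numpy 2.4.6 were used.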

Additional observations from a re-analysis of the deposited data

How the results depend on the processing

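Alternatives were the 25th or 75th percentile as the line, probe sets without a shared-transcript suffix, probe sets naming several genes, quantile normalization, no centring, pseudocounts of 1 and 64, no filter on low values, and removal of each array. The count of the 12 probe sets above the line ran from 6 to 9, and that of the 8 genes from 5 to 7, the lowest with the 75th percentile line. Acsl5 and Acsm5 did not pass that line on all 3 arrays. The shares of all probe sets and genes passing the 25th and 75th percentile lines were not computed, so counts at these lines have no background beside them. The 75th percentile line left 7 genes of glycerolipid synthesis against 11 and 1 PPAR regulator against 5. The 25th percentile line gave 5 phospholipid remodelling genes against 3. Without any filter and with a pseudocount of 1, a setting chosen after seeing the data, 2 of the 12 probe sets ranged by 2-fold or more, 1 of Acsl6 (2.97 log2 units) and 1 of Acsl1 (1.69). Both rested on array 2: without it, at the same pseudocount, the ranges were 0.27 for Acsl6 and 0.29 for Acsl1. Averaging probe sets gave 978 for Acsl1 and 105 for Acsl5. Of 97 alternative counts, 93 stayed within 1.5 times, but many of them could hardly move. Quantile normalization keeps the order within an array, so it cannot change which probe sets lie above the median. Removing an array or adding probe sets cannot lower a count above the line. The 93 is therefore not a measure of how stable the counts are. No paired analysis was possible because all arrays belong to 1 group. The median range of all probe sets above the median, 0.29 log2 units, limits which differences between arrays can be read.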
